A study of Mus musculus with 4 samples.

Results

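Chemokines and their receptors were described across cultured T lineage cells and the bone marrow progenitors they came from. The members are all genes of the array table whose single annotated symbol is that of a CC, CXC, XC or CX3C chemokine or chemokine receptor, with 1 probe set per gene, the one with the highest mean over the 4 arrays. This gave 52 of 19938 named genes, 34 ligands and 18 receptors. RNA was measured on Affymetrix whole-transcript arrays in 3 groups, all from C57BL/6 bone marrow. Tcf1 cells (2 arrays, labelled as biological replicates) grew from LMPPs that received a retrovirus carrying Tcf1 and the marker VEX. Their feeder layer was OP9, stromal cells from bone marrow, with no Notch ligand added. Control cells (1 array) grew from LMPPs that received the VEX vector alone, on OP9-DL4, the same stroma with the Notch ligand DL4. Both cultures received IL7 at 1 ng/ml and Flt3-ligand at 5 ng/ml, and on day 10 both were sorted as live CD45.2+ Mac1- Gr1- Thy1+ CD25+ cells. LMPPs (1 array) are lymphoid-primed multipotent progenitors, sorted as lineage-negative Sca+ kit+ cells with high Flt3. Labelled as pooled wild-type cells, they were held for 48 hours in the transduction medium with IL-3, IL-6, SCF and Flt3-ligand before RNA was taken. Tcf1 and control cells thus differed in vector and in stroma, and both differed from LMPPs in culture time, stroma, cytokines, gate and virus, so the effects of these cannot be told apart.

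Chemokines are small secreted proteins that guide the migration of leukocytes, and they are classed as CC, CXC, XC or CX3C by the spacing of conserved cysteines near their amino terminus. They act through receptors of the G protein-coupled family, and most inflammatory members are shared between several receptors. In T cell development, Ccr7, Ccr9 and Cxcr4 are known for guiding marrow progenitors into the thymus and through its cortex, while other receptors appear on later T cell subsets or on myeloid cells.

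The values are log2 signals, and a level cannot be compared between genes because probe sets differ in brightness. The median named gene lay between 7.47 and 7.59 on the 4 arrays. A place above or below it describes the signal of a probe set and not the amount of RNA. Precision is limited by how few arrays there are: the spread behind the tests came from the Tcf1 pair (1 residual degree of freedom) and limma's prior, and the single control and LMPP arrays are assumed to vary alike. Of 8 T lineage markers, 8 were at least 2-fold higher in control cells than in LMPPs. In Tcf1 cells 5 of the 8 were higher than in LMPPs, the sort markers Thy1 and Il2ra among them, whereas Cd3d (0.16) and Cd3e (0.11), chains of the CD3 complex, and Rag1 (0.51) did not pass. Compared with control cells, 5 of the 8 passed as lower and 0 as higher in Tcf1 cells (limma), with a median difference of -2.08. Cd3g, another CD3 chain, differed the most, by -6.44. Tcf7, the gene of the transduced factor, was not analysed here.

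Receptors of 2 kinds stood out. Ccr4, the receptor of Ccl17 and Ccl22 on helper and regulatory T cells and on thymocytes, and Cxcr5, the receptor of Cxcl13 that leads B cells and follicular helper T cells to follicles, were higher in Tcf1 cells than in LMPPs and lower in Tcf1 cells than in control cells. Ccr7, the receptor of Ccl19 and Ccl21, rose in Tcf1 cells over LMPPs, and the myeloid receptors Ccr1 and Ccr2 were higher in Tcf1 cells than in control cells. In all, 3 of 18 receptors passed as higher and 0 as lower in Tcf1 cells against LMPPs (limma, Benjamini-Hochberg adjusted over all genes), where 3.06% of all genes passed (1.75% higher and 1.31% lower), and 8 receptors had an unadjusted p under 0.05, as did 14.5% of all genes. Against control cells, 2 receptors passed as higher and 2 as lower, where 4.38% of all genes passed (1.9% higher and 2.49% lower).

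For Ccr4 the Tcf1 replicates read 8.56 and 9.07, the control array 10.07 and the LMPP array 6.40. Both Tcf1 arrays lay between the control array above them and the LMPP array below. The difference was 2.41 between Tcf1 cells and LMPPs (SE 0.23, adjusted p = 0.0032, limma), a 5.32-fold higher signal. It was -1.25 between Tcf1 cells and control cells (SE 0.23, adjusted p = 0.0331, limma). With no test, since each group had 1 array, control cells read 3.66 above LMPPs. Cxcr5 had the same order, with 8.46 and 9.23 in the Tcf1 replicates, 10.62 in the control array and 6.79 in the LMPP array. It differed by 2.06 between Tcf1 cells and LMPPs (SE 0.30, adjusted p = 0.0164, limma) and by -1.77 between Tcf1 cells and control cells (SE 0.30, adjusted p = 0.0227, limma). Neither receptor was below the median gene in either cultured group, and both were below it in LMPPs. These were the only receptors at least 2-fold apart between the control and LMPP arrays, where 5.53% of all genes were.

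The promoters of Ccr4 and of its ligands Ccl17 and Ccl22 are shown because the receptor and Ccl22 had the largest differences among the members against LMPPs. Each run is the 250 bases before the annotated gene start in RefSeq on GRCm38.p6, read 5′ to 3′ on the gene's strand. They lie at chr9:114496545-114496794 on the minus strand (Ccr4), chr8:94810203-94810452 on the plus strand (Ccl17) and chr8:94745434-94745683 on the plus strand (Ccl22). Capitals mark CTTTGAA on either strand, a sequence that TCF/LEF factors can bind, chosen with the sequences in view.
Ccr4: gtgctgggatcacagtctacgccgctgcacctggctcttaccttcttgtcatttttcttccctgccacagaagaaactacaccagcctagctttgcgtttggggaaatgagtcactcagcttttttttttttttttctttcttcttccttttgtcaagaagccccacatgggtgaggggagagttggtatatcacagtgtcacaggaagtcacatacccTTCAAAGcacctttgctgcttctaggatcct
Ccl17: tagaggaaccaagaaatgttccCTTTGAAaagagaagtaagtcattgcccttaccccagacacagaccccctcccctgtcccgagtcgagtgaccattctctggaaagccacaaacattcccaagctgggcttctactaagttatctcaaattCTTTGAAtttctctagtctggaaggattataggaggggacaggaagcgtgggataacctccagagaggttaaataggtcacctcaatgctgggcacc
Ccl22: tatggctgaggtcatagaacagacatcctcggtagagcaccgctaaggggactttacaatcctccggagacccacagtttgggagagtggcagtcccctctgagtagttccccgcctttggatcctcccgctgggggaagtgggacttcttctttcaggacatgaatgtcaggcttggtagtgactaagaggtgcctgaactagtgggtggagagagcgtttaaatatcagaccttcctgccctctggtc
The match in Ccr4 began at position -31 from the start, those in Ccl17 at -228 and -97, and the Ccl22 window held none. This motif occurred in 4.46% of the 32851 RefSeq promoter windows of this length, and in 6 of 40 windows of the 38 members with an entry. The 6 were those of Ccl17, Ccl25, Ccl8, Ccr4, Ccr6 and Cxcl15, of which Ccr4 alone passed in either test. A match describes letters only.

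Ccr7 read 10.94 and 11.65 in the Tcf1 replicates, 10.27 in the control array and 9.71 in the LMPP array. Both Tcf1 arrays were above both others. The difference from LMPPs was 1.58 (SE 0.28, adjusted p = 0.0368, limma), while that from control cells was 1.03 (SE 0.28, adjusted p = 0.125, limma) and did not pass. Ccr9, the receptor of the thymic chemokine Ccl25, had 10.89 and 11.21 in the Tcf1 replicates, 10.28 in the control array and 10.61 in the LMPP array. Its differences of 0.44 from LMPPs (adjusted p = 0.374, limma) and 0.77 from control cells (adjusted p = 0.0908, limma) did not pass, although both Tcf1 arrays were the highest. Cxcr4, which holds progenitors in the marrow through Cxcl12, read 11.42 and 11.45 in the Tcf1 replicates, 11.98 in the control array and 11.11 in the LMPP array. The order was again control, Tcf1, LMPP, but the differences of 0.33 from LMPPs and -0.55 from control cells (adjusted p = 0.447 and 0.145, limma) did not pass. The probe sets of all 3 receptors of progenitor entry into the thymus read above the median gene on every array, LMPPs included.

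**Figure D1:**
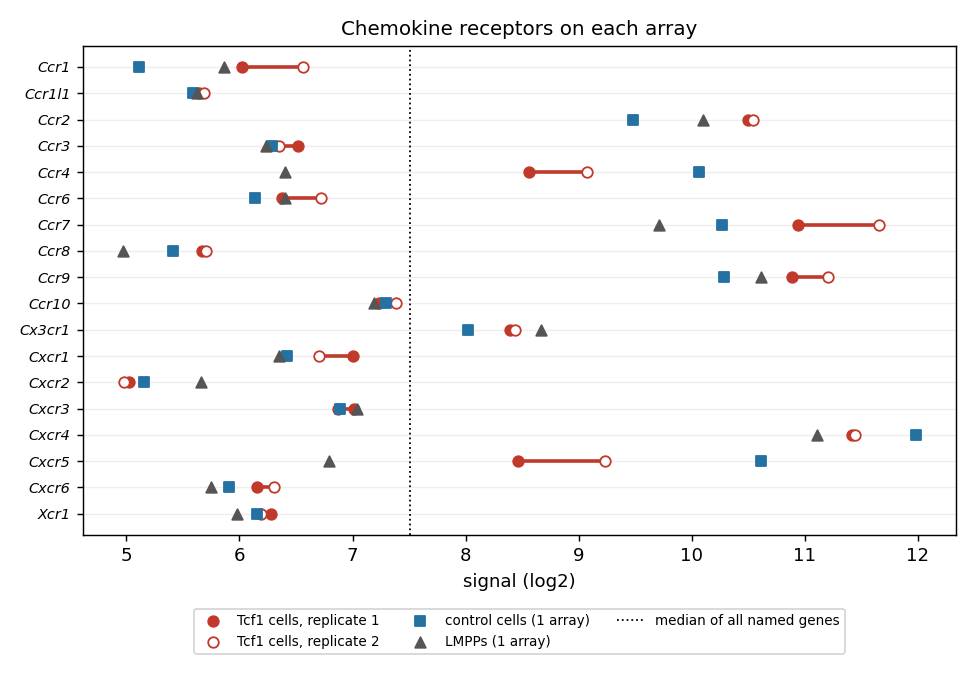
Log2 signal (horizontal axis) of the 18 chemokine receptors on each array, with a line joining the 2 Tcf1 replicates and a dotted line at the median named gene. For Ccr4 and Cxcr5 the Tcf1 cells lie between control cells (10.07 and 10.62) and LMPPs (6.40 and 6.79), while Ccr2, Ccr7 and Ccr9 are highest in Tcf1 cells.

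Receptors known from monocytes and other myeloid cells followed. Ccr2, Ccr1 and Cx3cr1 had their lowest values in control cells and Cxcr2 did not. Ccr2, which brings monocytes out of the marrow towards Ccl2 and Ccl7, read 10.49 and 10.54 in the Tcf1 replicates, 9.48 in the control array and 10.10 in the LMPP array. It was 2.05-fold higher in Tcf1 cells than in control cells (1.03, SE 0.16, adjusted p = 0.0163, limma) and differed by 0.41 from LMPPs without passing (adjusted p = 0.297, limma). Ccr1, a receptor of Ccl3, Ccl5 and Ccl9, read 6.02 and 6.57 in the Tcf1 replicates, 5.11 in the control array and 5.86 in the LMPP array. Its level stayed below the median gene throughout. The difference of 1.18 from control cells (SE 0.24, adjusted p = 0.046, limma) passed, but not after renewed quantile normalization (adjusted p = 0.0783). Cx3cr1, the fractalkine receptor of mononuclear phagocytes, read 8.39 and 8.44 in the Tcf1 replicates, 8.02 in the control array and 8.66 in the LMPP array and passed in neither test. Cxcr2, the neutrophil receptor of the ELR chemokines, was dim, with 5.02 and 4.98 in the Tcf1 replicates, 5.16 in the control array and 5.66 in the LMPP array. Its difference of -0.65 from LMPPs did not pass (adjusted p = 0.0985, limma).

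The other 9 receptors passed in neither test and were below the median gene on all 4 arrays. Ccr8, a receptor of Ccl1, read 5.67 and 5.70 in the Tcf1 replicates, 5.41 in the control array and 4.97 in the LMPP array, with a difference of 0.72 from LMPPs (adjusted p = 0.0769, limma). Cxcr6, the receptor of Cxcl16, had 6.15 and 6.30 in the Tcf1 replicates, 5.90 in the control array and 5.75 in the LMPP array. Cxcr1, a relative of Cxcr2, had 7.003 and 6.71 in the Tcf1 replicates, 6.42 in the control array and 6.35 in the LMPP array. In these 3 both Tcf1 arrays were above both other arrays, but none passed, and how many of all genes had this order was not counted. Cxcr3, the receptor of the interferon-induced CXC ligands, varied little, with 7.02 and 6.88 in the Tcf1 replicates, 6.89 in the control array and 7.04 in the LMPP array. Ccr6, the receptor of Ccl20, had 6.38 and 6.72 in the Tcf1 replicates, 6.14 in the control array and 6.40 in the LMPP array. Xcr1, the receptor of Xcl1 on cross-presenting dendritic cells, had 6.28 and 6.19 in the Tcf1 replicates, 6.15 in the control array and 5.97 in the LMPP array. The largest difference among these 3 was 0.42, for Ccr6 against control cells. Ccr3, the eotaxin receptor, differed by 0.20 from LMPPs and 0.15 from control cells. For Ccr10, a receptor of Ccl28, the differences were 0.12 and 0.02, and for Ccr1l1, a close relative of Ccr1, 0.04 and 0.08.

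Among the ligands, Ccl22 and Ccl5 were higher in Tcf1 cells than in both other groups, and Ccl9, Ccl6 and Xcl1 were higher in Tcf1 cells than in control cells. Of 34 ligands, 2 passed as higher and 0 as lower against LMPPs, beside 3.06% of all genes in either direction. At an unadjusted p under 0.05 there were 11 ligands, beside 14.5% of all genes (limma). Against control cells 5 passed as higher and 0 as lower, beside 4.38% of all genes, and 11 had an unadjusted p under 0.05, beside 14.1% of all genes. The CC ligands, 19 of the 34, held 4 of these 5. None of the 5 CXC ligands with the ELR motif and none of the 3 interferon-induced ones passed in either comparison, with 0 and 1 of them at an unadjusted p under 0.05 in each comparison (limma). With 3.06% and 4.38% of all genes called, counts of 0 in sets this small do not set them apart from other genes.

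Ccl22, made by dendritic cells and macrophages and a ligand of Ccr4, read 9.45 and 10.43 in the Tcf1 replicates, 6.03 in the control array and 7.65 in the LMPP array. The Tcf1 arrays were the highest and the control array was below the 25th percentile of genes. The difference was 3.91 from control cells (SE 0.36, adjusted p = 0.00223, limma) and 2.29 from LMPPs (SE 0.36, adjusted p = 0.0224, limma). Ccl17, the other Ccr4 ligand, lies near Ccl22 on chromosome 8, with Cx3cl1 between them, in the GRCm38.p6 gene table. It read 7.83 and 8.62 in the Tcf1 replicates, 7.15 in the control array and 8.49 in the LMPP array. The LMPP array lay between the Tcf1 replicates, and neither the difference from control cells (1.07, adjusted p = 0.138, limma) nor that from LMPPs (-0.27, adjusted p = 0.858, limma) passed. Cx3cl1, the membrane-bound fractalkine, had 8.01 and 8.37 in the Tcf1 replicates, 7.43 in the control array and 7.58 in the LMPP array. Its differences of 0.61 from LMPPs and 0.76 from control cells (adjusted p = 0.208 and 0.104, limma) did not pass. Ccl22 was thus the member of the 3 that passed.

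Ccl5, a chemokine of activated T cells, NK cells and macrophages, read 10.30 and 11.06 in the Tcf1 replicates, 8.76 in the control array and 8.57 in the LMPP array. Both Tcf1 arrays were above both others, which differed from each other by 0.19. The difference was 2.12 from LMPPs (SE 0.30, adjusted p = 0.0142, limma) and 1.93 from control cells (SE 0.30, adjusted p = 0.0163, limma). Xcl1, a chemokine of activated T and NK cells, had 7.97 and 8.36 in the Tcf1 replicates, 7.16 in the control array and 7.26 in the LMPP array. It passed against control cells (1.01, SE 0.21, adjusted p = 0.046, limma) and not against LMPPs (0.91, adjusted p = 0.0786, limma). In both genes each Tcf1 array lay above both other arrays.

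Ccl9 and Ccl6, myeloid chemokines that neighbour each other on chromosome 11, followed another order. Ccl9 read 9.95 and 10.00 in the Tcf1 replicates, 7.19 in the control array and 9.60 in the LMPP array. Tcf1 cells were 6.88-fold above control cells (2.78, SE 0.16, adjusted p = 0.000401, limma) and 0.37 above LMPPs, which did not pass (adjusted p = 0.359, limma). Ccl6 had 7.76 and 8.26 in the Tcf1 replicates, 6.90 in the control array and 8.24 in the LMPP array, a difference of 1.12 from control cells that passed (SE 0.23, adjusted p = 0.0477, limma). In both genes the control array was the lowest and the Tcf1 arrays lay near LMPPs. Ccl3, a ligand of Ccr1, was highest in LMPPs, with 10.10 and 10.87 in the Tcf1 replicates, 9.94 in the control array and 11.40 in the LMPP array. Its difference of -0.91 from LMPPs did not pass (adjusted p = 0.214, limma). Ccl4, its neighbour and close relative, was dim, between 6.34 and 6.51 on all 4 arrays. Related genes share sequence, and how far probe sets of these pairs read each other's transcript was not tested.

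Control cells against LMPPs had 1 array each and no test. In this comparison 6 of 34 ligands were at least 2-fold lower in control cells and 0 were higher, beside 2.36% of all genes lower and 3.17% higher. They were Ccl9 (-2.41), Ccl22 (-1.62), Ccl3 (-1.46), Ccl6 (-1.34), Ccl17 (-1.33) and Ccl24 (-1.10), an eosinophil attractant, and all 6 are CC ligands. Ccl24 read 6.65 and 7.01 in the Tcf1 replicates, 6.41 in the control array and 7.51 in the LMPP array and passed in neither test.

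**Figure D2:**
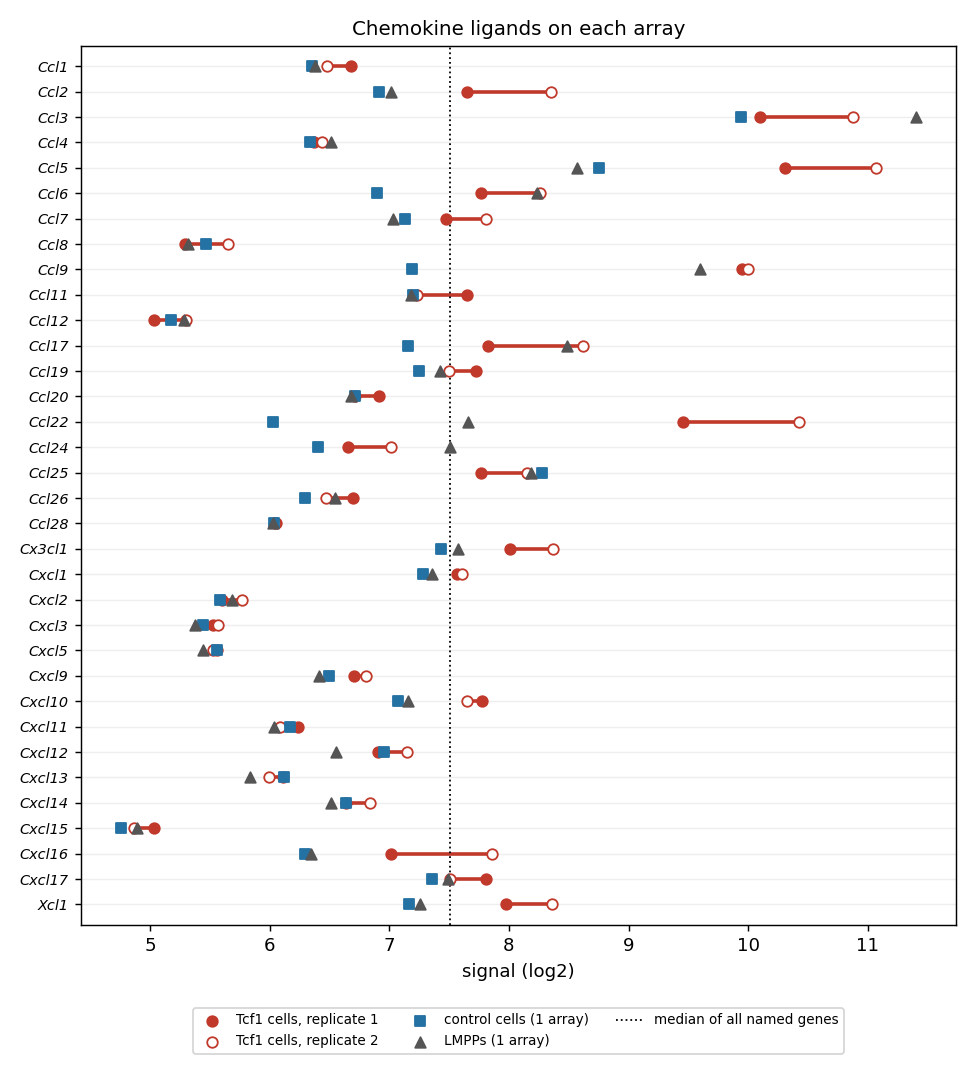
Log2 signal (horizontal axis) of the 34 chemokine ligands on each array, with a line joining the 2 Tcf1 replicates and a dotted line at the median named gene. Ccl22 is at 9.45 and 10.43 in Tcf1 cells, 6.03 in control cells and 7.65 in LMPPs, while the ELR ligands Cxcl2, Cxcl3, Cxcl5 and Cxcl15 lie below 6 on every array.

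Several monocyte attractants and CXC ligands had both Tcf1 arrays above the other arrays without passing, and the share of all genes with this order was not counted. Ccl2, the main ligand of Ccr2, read 7.65 and 8.35 in the Tcf1 replicates, 6.92 in the control array and 7.01 in the LMPP array, with differences of 0.99 from LMPPs and 1.08 from control cells (adjusted p = 0.151 and 0.105, limma). Ccl7, another Ccr2 ligand, had 7.47 and 7.81 in the Tcf1 replicates, 7.13 in the control array and 7.04 in the LMPP array. Cxcl16, the ligand of Cxcr6, had 7.01 and 7.86 in the Tcf1 replicates, 6.30 in the control array and 6.34 in the LMPP array, with differences of 1.09 from LMPPs and 1.14 from control cells (adjusted p = 0.165 and 0.134, limma). In Ccl2 and Cxcl16 the Tcf1 replicates were themselves 0.71 and 0.85 apart. Cxcl10, induced by interferons and a ligand of Cxcr3, had 7.78 and 7.65 in the Tcf1 replicates, 7.07 in the control array and 7.15 in the LMPP array. Its differences were 0.56 from LMPPs and 0.64 from control cells (adjusted p = 0.163 and 0.0981, limma). Beside it, 10 of 11 interferon response genes passed as higher in Tcf1 cells against LMPPs, with a median difference of 2.12, and 5 of 11 did so against control cells. Their part in the level of Cxcl10 was not tested.

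Of the ligands of the thymus-homing receptors, Ccl25, Ccl19 and Cxcl12 were tested, and the Ccl21 genes, ligands of Ccr7 whose probe sets carry several symbols, were not analysed here. Ccl25, the ligand of Ccr9, read 7.77 and 8.16 in the Tcf1 replicates, 8.27 in the control array and 8.19 in the LMPP array. Ccl19, a ligand of Ccr7, had 7.72 and 7.497 in the Tcf1 replicates, 7.25 in the control array and 7.42 in the LMPP array. Cxcl12, the ligand of Cxcr4 and an abundant product of marrow stroma, had 6.91 and 7.15 in the Tcf1 replicates, 6.96 in the control array and 6.56 in the LMPP array. None of these 3 passed in either test, and Cxcl12 stayed below the median gene on every array. Cxcl1, an ELR ligand, had 7.57 and 7.61 in the Tcf1 replicates, 7.28 in the control array and 7.36 in the LMPP array. Ccl11, an eotaxin, had 7.65 and 7.24 in the Tcf1 replicates, 7.20 in the control array and 7.18 in the LMPP array. Cxcl17, a mucosal ligand, had 7.81 and 7.51 in the Tcf1 replicates, 7.36 in the control array and 7.49 in the LMPP array. Neither these nor Cxcl1 passed in either test. The remaining 16 ligands, Ccl4 and Cxcl12 among them, were below the median gene on every array, between 4.76 and 7.15. None of the 16 passed in either test, with 1 and 0 at an unadjusted p under 0.05 against LMPPs and control cells (limma), and none differed by more than 0.47 in any comparison.

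**Figure D3:**
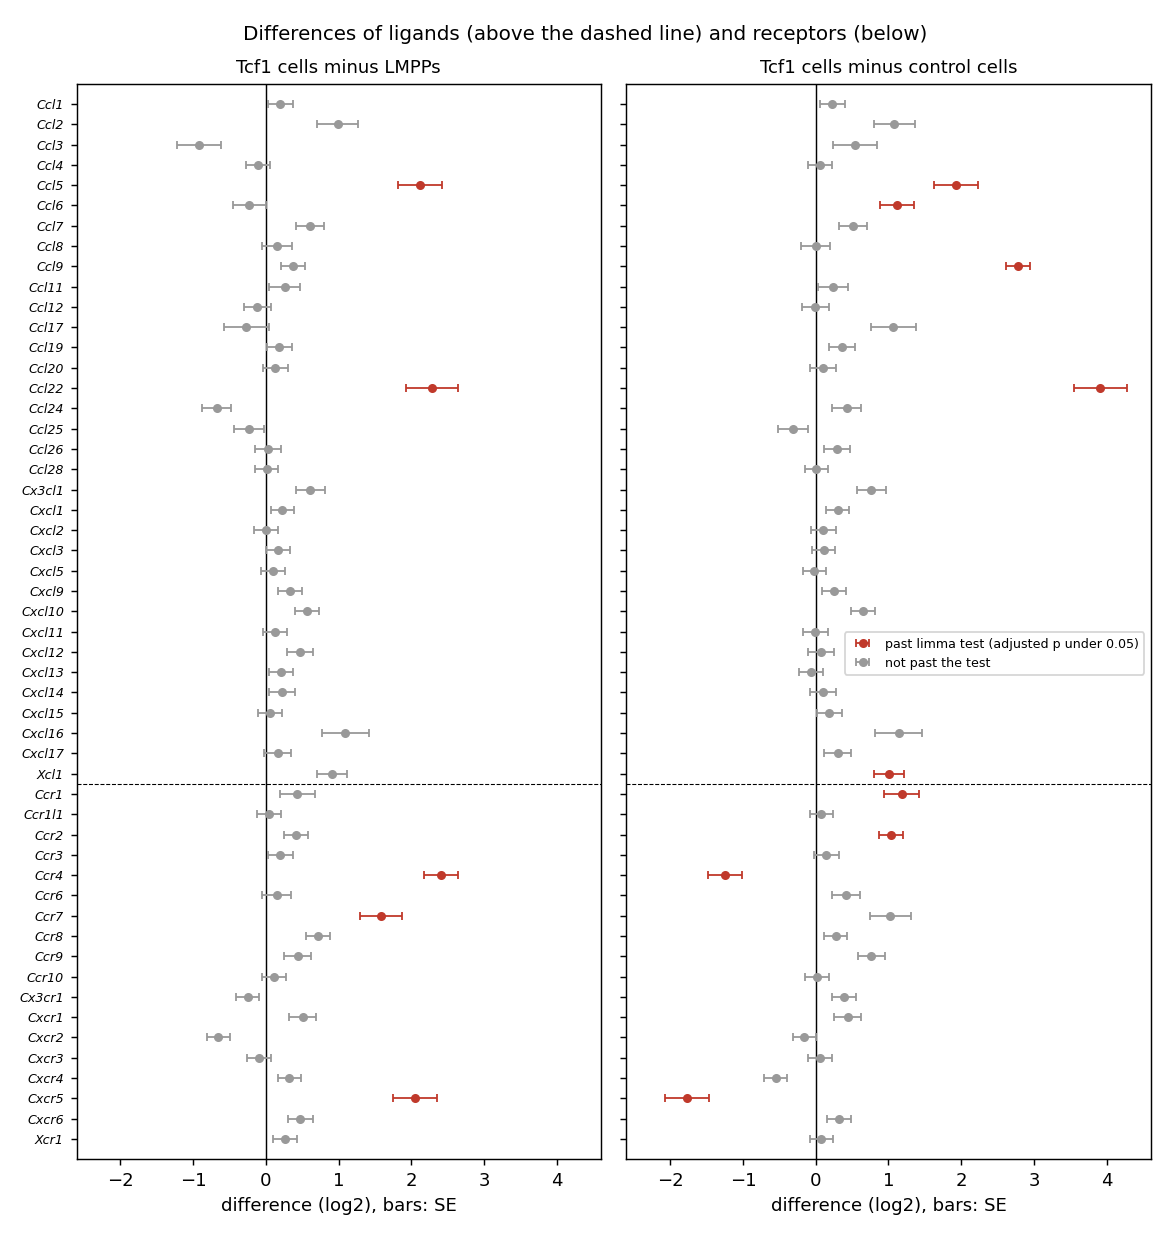
Differences in log2 signal (horizontal axes) of all 52 members between Tcf1 cells and LMPPs and between Tcf1 cells and control cells, with bars for the standard error of the limma fit and red for an adjusted p under 0.05. Ccl22 is at 2.29 and 3.91 in the 2 panels, while Ccr4 (2.41 and -1.25) and Cxcr5 (2.06 and -1.77) lie on opposite sides of 0.

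Across the 52 members, 37 had both Tcf1 arrays above the LMPP array and 7 had both below it, where 35.8% of all genes were above and 36.8% below. Against the control array 38 were above and 7 below, where 38.6% of all genes were above and 34.2% below. The median difference of the members was 0.21 from LMPPs and 0.27 from control cells, against 0.00 and 0.02 over all genes. Dim genes leaned the same way: among genes with a mean below the median gene, 45.9% had both Tcf1 arrays above the LMPP array and 47% above the control array. Of the 35 members in that range, 25 (71.4%) were above in each comparison. Genes above the median gene were not counted apart, and the part of signal level in the lean of the members was not tested. Genes with both Tcf1 arrays above both other arrays were not counted over all genes. By RefSeq's gene positions, 11 of the 18 receptors lie on chromosome 9, and 12 of the 34 ligands on chromosome 11, 11 on chromosome 5 and 4 on chromosome 8.

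The Tcf1 replicates were not equal for these genes. Replicate 2 read at least 0.5 higher in 11 of 52 members and replicate 1 in 0, while 2.69% of all genes were that much higher in replicate 2 (536 genes, and 387 in replicate 1). The 11 were Ccl22 (0.97), Cxcl16 (0.85), Ccl17 (0.79), Ccl3 (0.77), Cxcr5 (0.77), Ccl5 (0.76), Ccr7 (0.71), Ccl2 (0.71), Ccr1 (0.54), Ccr4 (0.52) and Ccl6 (0.50). The Tcf1 pair had standard deviations of 0.69 (Ccl22), 0.54 (Cxcr5), 0.54 (Ccl5), 0.50 (Ccr7) and 0.36 (Ccr4), the members called against LMPPs. Limma's prior was 0.141, so their SEs are smaller than the pair alone would give. For Ccl9 and Ccr2 the pair had 0.03 each, below the prior. With both replicates, 6 members were at least 2-fold apart from LMPPs, all higher, where 2.9% of all genes were (1.79% higher and 1.11% lower). From control cells 11 were at least 2-fold higher and 2 lower, where 3.8% of all genes were that far apart (1.78% higher and 2.02% lower). With replicate 1 alone, 6 members instead of these 13 were 2-fold from control cells. Ccl22, Ccl5, Ccl9, Ccr2, Ccr4 and Cxcr5 were the 6.

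Markers of other cell types were described on the same arrays. The mean log2 signal of 13 macrophage and monocyte markers was 9.01 and 9.23 in the Tcf1 replicates, 6.75 in the control array and 8.18 in the LMPP array. Of them, 10 passed as higher against control cells, Adgre1 (4.76), Cybb (4.39) and the lectin Mgl2 (4.10) by the most, and 6 rose and 1 fell against LMPPs. The mean of 7 dendritic cell and MHC class II markers was 8.23 and 8.89 in the Tcf1 replicates, 6.56 in the control array and 8.94 in the LMPP array, and 3 of the 7 passed as higher against control cells. Control cells thus had the lowest mean of both lists, and also of the neutrophil list (7.10) and of 6 LMPP markers. The LMPP markers averaged 10.34 and 10.41 in the Tcf1 replicates, 8.10 in the control array and 10.72 in the LMPP array. Of the 6, 1 passed as higher and 3 as lower in Tcf1 cells against LMPPs, and 4 as higher against control cells (limma). Kit, the 1 higher against LMPPs, went against the mean, with 11.17 and 11.27 in the Tcf1 replicates, 11.39 in the control array and 9.68 in the LMPP array. Ccl22, Ccl9, Ccl6, Ccl17, Ccr1 and Ccr2 were lowest in control cells, as were Ccr9, Ccl3, Ccl24 and further members. The sort removed Mac1+ and Gr1+ cells. The Mac1 gene Itgam had 7.44 and 7.70 in the Tcf1 replicates, 7.03 in the control array and 8.25 in the LMPP array. It passed in neither test. No macrophage marker was below the 25th percentile of genes in Tcf1 cells or LMPPs and 3 of 13 were in control cells. Of the C1q complement subunits of tissue macrophages, C1qb had 8.60 and 9.05 in the Tcf1 replicates, 6.59 in the control array and 7.44 in the LMPP array. It was higher than in control cells (2.24, adjusted p = 0.00286, limma) and than in LMPPs (1.39, adjusted p = 0.0224, limma), while C1qa lay between 6.64 and 6.83 on all 4 arrays. Of 12 stromal markers 4 passed as higher against LMPPs, and 2 as higher and 1 as lower against control cells, where the 1 lower was Pdgfrb. The matrix genes Fn1 (1.90 and 1.80) and Bgn (2.25 and 1.52) were higher against both, Timp3 (3.75) and Thbs1 (3.12) against LMPPs, and the collagen genes Col1a1, Col1a2 and Col3a1 passed in neither. Of 9 NK and innate lymphoid markers, 2 passed as higher and 1 as lower against LMPPs, and 0 as higher and 2 as lower against control cells. Of 10 neutrophil markers 1 rose and 6 fell against LMPPs, and 4 were higher against control cells. The part of such cells in the chemokine values was not tested, and in bulk RNA more cells of a type and more RNA per cell cannot be told apart.

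**Figure D4:**
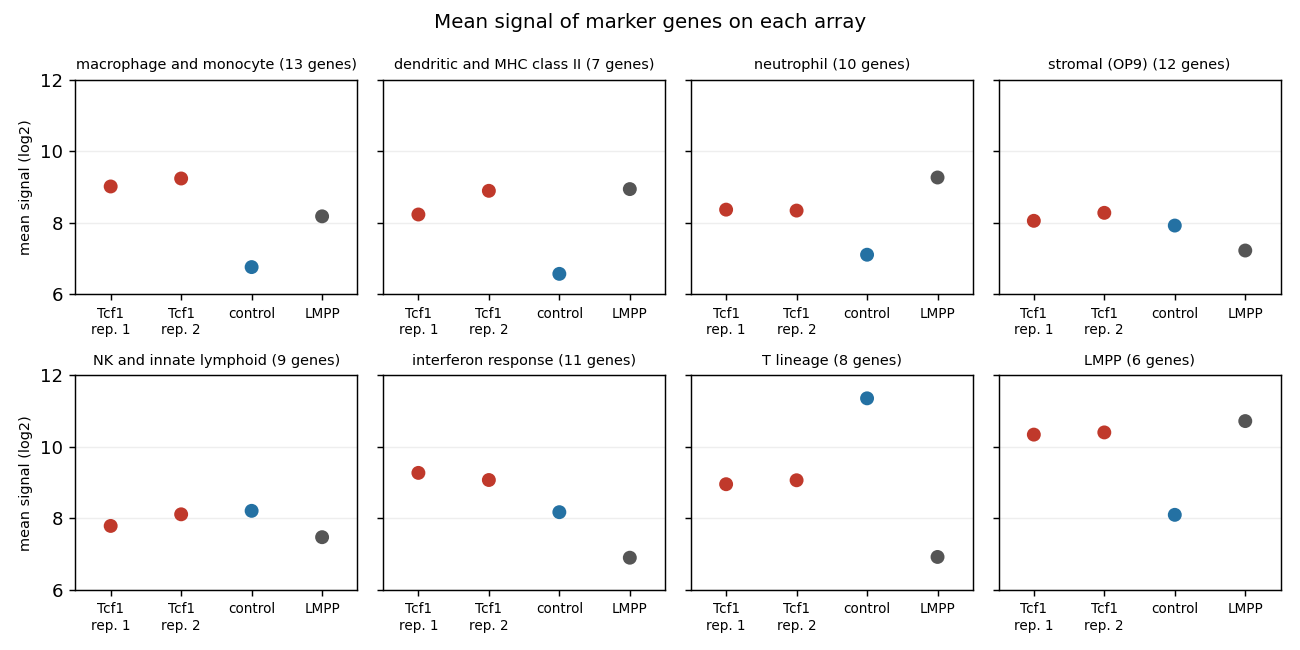
Mean log2 signal (vertical axis) of 8 lists of marker genes on each array, with Tcf1 replicates in red, control cells in blue, LMPPs in grey and an axis that starts at 6. The macrophage and monocyte list is at 9.01 and 9.23 in Tcf1 cells, 6.75 in control cells and 8.18 in LMPPs, and the T lineage list is at 11.36 in control cells.

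Genes that act below or beside the receptors were described in the same way. Of 32 signalling genes measured, 0 rose and 1 fell against LMPPs, and 3 were higher and 0 lower against control cells, beside 3.06% and 4.38% of all genes, with median differences of 0.00 and -0.04. Rgs18, a brake on G protein signalling in haematopoietic cells, had 10.35 and 10.64 in the Tcf1 replicates, 9.51 in the control array and 11.58 in the LMPP array. It was lower than in LMPPs (-1.08, adjusted p = 0.0323, limma) and higher than in control cells (0.99, adjusted p = 0.0346, limma). Grk3, a kinase that desensitizes receptors (1.29), and Pik3r6, a regulatory subunit of the PI 3-kinase that G proteins activate (1.05), were higher than in control cells. Gnai2, the main Gi subunit used by these receptors in leukocytes, differed by -0.06 from LMPPs and -0.19 from control cells. Of 10 other ligands, atypical receptors and processing genes, Dpp4 alone passed. Dpp4, the surface peptidase CD26 that trims and inactivates several chemokines, read 9.77 and 10.11 in the Tcf1 replicates, 11.97 in the control array and 8.82 in the LMPP array. Like Ccr4 and Cxcr5 it was higher than in LMPPs (1.12, adjusted p = 0.033, limma) and lower than in control cells (-2.03, adjusted p = 0.00271, limma).

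All of these calls depended on which features were fitted. With all 35399 probe sets in the fit, unnamed ones included, 0 members passed in either comparison, and 0 of all probe sets did (limma). At an unadjusted p under 0.05 there were 11 and 14 members, beside 3317 and 3702 of all probe sets (limma). The adjusted p-values of the genes called here ran from 0.245 to 0.409 against LMPPs and from 0.127 to 0.351 against control cells (limma). After median centring 9 members were higher and 3 lower against LMPPs, so that 75% of the calls were upward instead of 100%. Over all genes the same setting took the calls from 610 (57.2% higher) to 1456 (41.7% higher, limma).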

How the data were processed

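Transcript levels were measured on 4 Affymetrix whole-transcript arrays, 2 of Tcf1 cells, 1 of control cells and 1 of LMPPs. The deposited values are log2 signals per probe set, made by the authors with RMA and Partek 6.5 per the submitters' processing notes; the log base was inferred from their range, and no genome build is stated in these sources. RMA scales the arrays to each other, so overall shifts in RNA content are not visible. Some differences in distribution remained in the deposited values. The 75th percentile of named genes was 9.12 in Tcf1 replicate 1 and 9.32 to 9.35 on the other arrays. Renewed quantile normalization took the genes called against LMPPs from 610 to 750 (limma).

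Of 35399 probe sets, 21789 had 1 gene symbol; the brightest per gene gave 19938 genes, with no filter on dim genes. All 52 member symbols matched the RefSeq gene table (GRCm38.p6). Another 7 chemokine probe sets with several symbols (Ccl21 and Ccl27 genes) were left out. A model of the 3 group means was fitted in R 4.3.3 with limma 3.58.1 (empirical Bayes, two-sided, Benjamini-Hochberg over all genes, threshold 0.05); the prior had 5.78 degrees of freedom. The fit was tested on simulated data with the same spread in every group. That cannot test whether the single control and LMPP arrays vary like the Tcf1 pair. Control cells against LMPPs had 1 array each, so genes that were 2-fold or more apart were counted without a test. Every receptor is named, as is every ligand that passed a test, was 2-fold apart between control cells and LMPPs, or exceeded the median gene on any array, and Rgs18, Grk3, Pik3r6 and Dpp4 as called genes of the other lists. Dim ligands, markers and Gnai2 named besides these were chosen after their values were seen. Members and lists were chosen with earlier results of these data known. The labels name the Tcf1 arrays biological replicates. Alternatives were other normalizations, probe set choices, filters and variance models, and each Tcf1 replicate left out.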

Additional observations from a re-analysis of the deposited data

Results flagged for a closer look

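In 5 members the Tcf1 arrays and the control array lay on opposite sides of the LMPP array, and the difference between Tcf1 and control cells passed (limma). Ccl22 was 2.29 above LMPPs in Tcf1 cells and differed by -1.62 in control cells, so that the groups were 3.91 apart. For Ccl9 these values were 0.37 and -2.41, with 2.78 between the groups. Ccr1 had 0.43 and -0.75, which left the groups 1.18 apart, and Ccr2 had 0.41 and -0.62, which left them 1.03 apart. Xcl1 had 0.91 and -0.09, and the groups were 1.01 apart. Both differences of each gene share the single LMPP array, and of the 5 genes Ccl22 alone passed against LMPPs. Differences of control cells from LMPPs, such as the -0.09 of Xcl1, had no test. The share of all genes that meet this rule was not counted.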

How the results depend on the processing

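Renewed quantile normalization and the mean of all probe sets of a gene left the counts of members called at 5 against LMPPs and 9 against control cells, with Ccr9 in place of Ccr1 after the first. The counts were 12 and 15 after median centring, 9 and 15 over genes above the 25th percentile and 9 and 14 with a mean-variance trend. They were 0 and 0 with all probe sets fitted (11 and 14 at an unadjusted p under 0.05, beside 3317 and 3702 of all probe sets, limma). In the first 3 of these settings the 5 genes called against LMPPs stayed among those called, and 8 of the 9 called against control cells did over genes above the 25th percentile, a filter that left out Ccr1. Over all genes, the 610 called against LMPPs (57.2% higher) became 1456 (41.7% higher), 1196, 936 and 0, in the same order of settings. The 874 called against control cells became 1646, 1437 and 0, and 1237 with the trend. The causes were not tested. Ccr10 against control cells turned to -0.0251 after median centring. Without either Tcf1 replicate no residual degree of freedom is left, so that no test was run. Members at least 2-fold apart, an alternative chosen after seeing the data, then numbered 6 to 8 against LMPPs and 6 to 12 against control cells, the 6 without Tcf1 replicate 2. The 8 members 2-fold apart between control cells and LMPPs stayed the same 8 under the 4 alternatives run. No paired analysis was possible because only Tcf1 cells have replicate numbers. Signal over background could not be judged, since detection calls were not used here.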

Other observations

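Probe sets of the same gene had the same direction in both tested comparisons for Ccl19 and Ccl25. The 5 probe sets of Ccl19 gave differences between 0.19 and 0.26 from LMPPs and between 0.36 and 0.43 from control cells. The 2 probe sets of Ccl25 gave -0.22 and -0.30 from LMPPs and -0.31 and -0.24 from control cells, but 0.09 and -0.07 between control cells and LMPPs.

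In the windows of 250 bases before the gene start (RefSeq, GRCm38.p6), the NF-kappaB consensus was found in 10 of 40 windows of the members, Cxcl1, Cxcl2, Cxcl3, Cxcl10 and Ccl20 among them, and in 7.25% of all windows. The interferon-stimulated response element was found in 3, those of Cxcl10, Ccl19 and Cxcl14, and in 2.98% of all windows. The RBPJ motif GTGGGAA was found in 1 (Ccr3) and in 5.42% of all windows, and TTCNNNGAA, which STAT factors can bind, in 4 and in 7.02% of all windows. Each motif was searched on both strands, with overlaps between motifs counted for each. These are matches of letters and no evidence of binding.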
